A study of Mus musculus with 4 samples.

Results

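The genes described here are 39 nuclear genes that encode subunits of respiratory chain complexes II to V. They were chosen by symbol and make up 39 of the 32285 genes in the deposited count tables. Of these, 4 belong to complex II, 9 to complex III, 12 to complex IV and 14 to complex V. All 39 were found. Their UMIs were measured by droplet 3′ single-cell RNA sequencing of whole mouse kidney. The 2 mutant libraries came from mice carrying a single-base change in TrnE, which encodes the mitochondrial transfer RNA for glutamate. The labels give mutation loads of 79% and 76%, but the deposited name of the first of these libraries carries another number, so that its load is uncertain. The 2 wild-type libraries came from C57BL/6J mice. Kidneys of both groups were digested with enzymes and sorted for viable cells, so every level below is that of cells that survived dissociation and sorting. The sources used here give neither age nor sex. The mutation lies in a transfer RNA, so the counts offer no check of genotype.

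Complex II passes electrons from succinate to ubiquinone, complex III passes them on to cytochrome c, complex IV passes them to oxygen, and complex V uses the resulting proton gradient to make ATP. Complex II is encoded in the nucleus alone, whereas complexes III, IV and V each join nuclear subunits to subunits made inside the mitochondrion, whose translation needs the mitochondrial transfer RNAs. In the kidney, the tubule segments that reabsorb and secrete ions are rich in mitochondria. Some complex IV and complex V subunits have several genes, among them tissue isoforms such as Cox4i2, known from lung and vascular cells, and Cox6a2, known from heart and skeletal muscle.

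The libraries held between 7242 and 11744 barcodes and between 42121175 and 70013861 UMIs. After filtering, 30428 of 37041 barcodes were kept and fell into 27 clusters and 14 classes, each named from marker genes, so that a class name stands for cells like that type. The clusters were formed without the 39 genes and without the mitochondrially encoded genes. Every class held at least 6 of its markers in 10% or more of its cells. Of the 14 classes, 8 had at least 50 cells in every library and were tested. The libraries of a pair shared 14 to 26 cell barcodes. Wild-type library 2 stood apart in composition, with 3788 of its 6306 cells in the proximal tubule class, and its Malat1 level was the highest of the 4 libraries in every class except neutrophils. The deposited name of wild-type library 1 is built like that of mutant library 2 and not like that of mutant library 1, so results are also given without it. Software version and genotype coincide and cannot be told apart. Nothing says whether libraries of a group differ in litter or day. The p-values of the genotype tests therefore rest on the spread between the 2 libraries of each group, in which animal and handling cannot be told apart.

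The summed level of the 39 genes was highest in the tubule classes (CPM, the UMIs of a gene scaled to a common total for each class and library). Intercalated cells, the acid-base cells of the collecting duct, averaged 66924 ± 13871 CPM (SD, n = 4 libraries) and cells of the thick ascending limb, a segment that reabsorbs salt without water, 49099 ± 4652 CPM. The distal convoluted and connecting tubule averaged 42487 ± 3396 CPM and the proximal tubule 37894 ± 7943 CPM. Next came plasmacytoid dendritic cells at 14676 ± 3388 CPM and T cells at 12626 ± 2891 CPM. Natural killer cells, monocytes, dendritic cells, B cells and endothelium followed between 12518 and 10910 CPM, and macrophages, neutrophils and plasma cells were lowest at 9047, 8934 and 6054 CPM.

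The 4 tubule classes did not overlap with the other 10 in any library. The lowest proximal tubule value, 26095 CPM in wild-type library 2, lay above the highest value of plasmacytoid dendritic cells, 19390 CPM in mutant library 1. Every other pair of neighbours in the order overlapped, although intercalated cells lay above the thick ascending limb in 4 of 4 libraries. Classes with under 50 cells in some library were the intercalated cells (smallest library 32 cells), endothelium (37), natural killer cells (36), plasma cells (21), neutrophils (6) and plasmacytoid dendritic cells (2), and their levels are descriptions only.

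**Figure D1:**
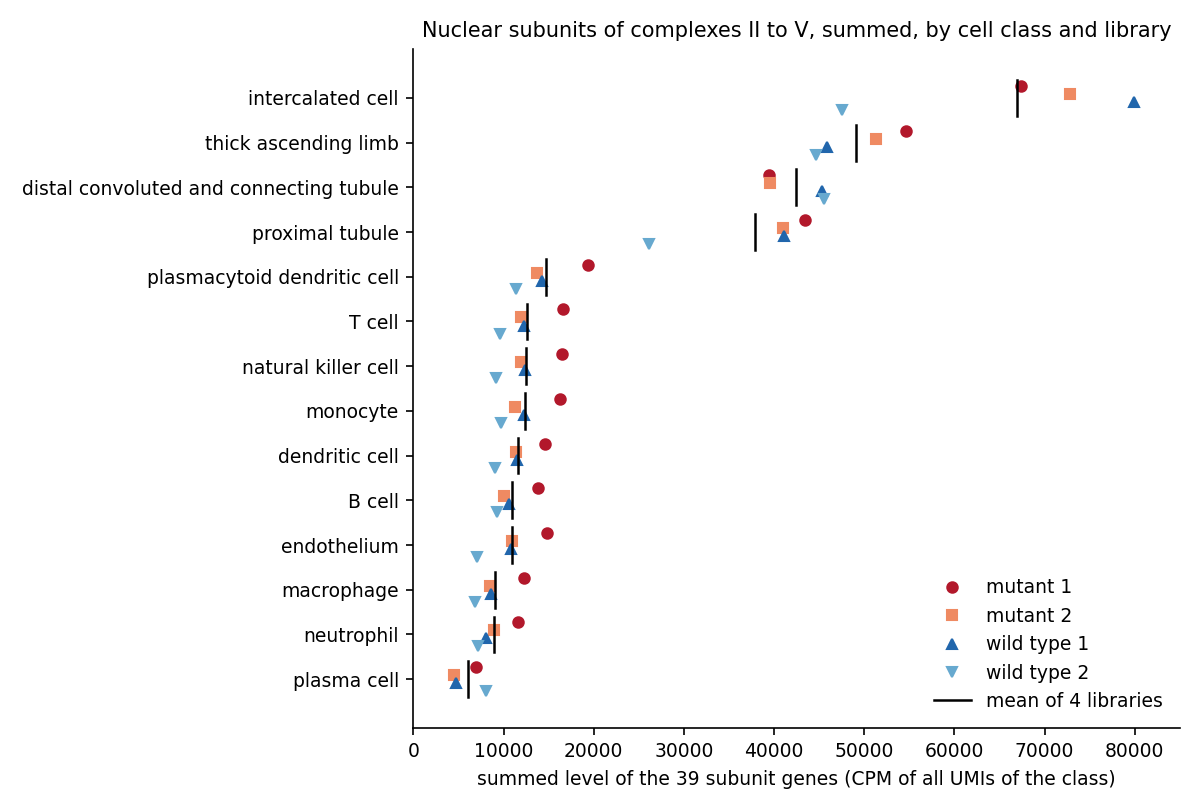
Summed level of the 39 genes in CPM (x axis) in each of the 14 cell classes (rows), with 1 point per library and a black line at the mean of 4 libraries. The 4 tubule classes lie to the right of all others, from 26095 CPM upward, while the other 10 classes stay at or below 19390 CPM.

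Within a library, the summed level in the proximal tubule was 2.62 and 3.42 times that in T cells in the mutant libraries, and 3.34 and 2.70 times in the wild-type libraries. The mean ratio was 3.02 ± 0.42 (SD, n = 4). Intercalated cells held 1.55 and 1.78 times the proximal tubule level in the mutants and 1.95 and 1.82 times in the wild types. All 4 complexes followed this order of intercalated cells, other tubule classes and T cells. Complex II averaged 2347 CPM in intercalated cells, 1589 in the proximal tubule and 392 in T cells. Complex III averaged 12599, 6992 and 2085 CPM in the same classes, complex IV 25871, 14610 and 4668 CPM, and complex V 26107, 14703 and 5481 CPM. All these levels are scaled to all UMIs, mitochondrial ones included. The median mitochondrial share of a cell was 1.16% in intercalated cells and 21.2% in the thick ascending limb. It ran from 0.751% to 22.8% over the proximal tubule clusters. Scaled to nuclear UMIs alone, the thick ascending limb averaged 60681 CPM. The part of this scaling in the order of the tubule classes was not tested.

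**Figure D2:**
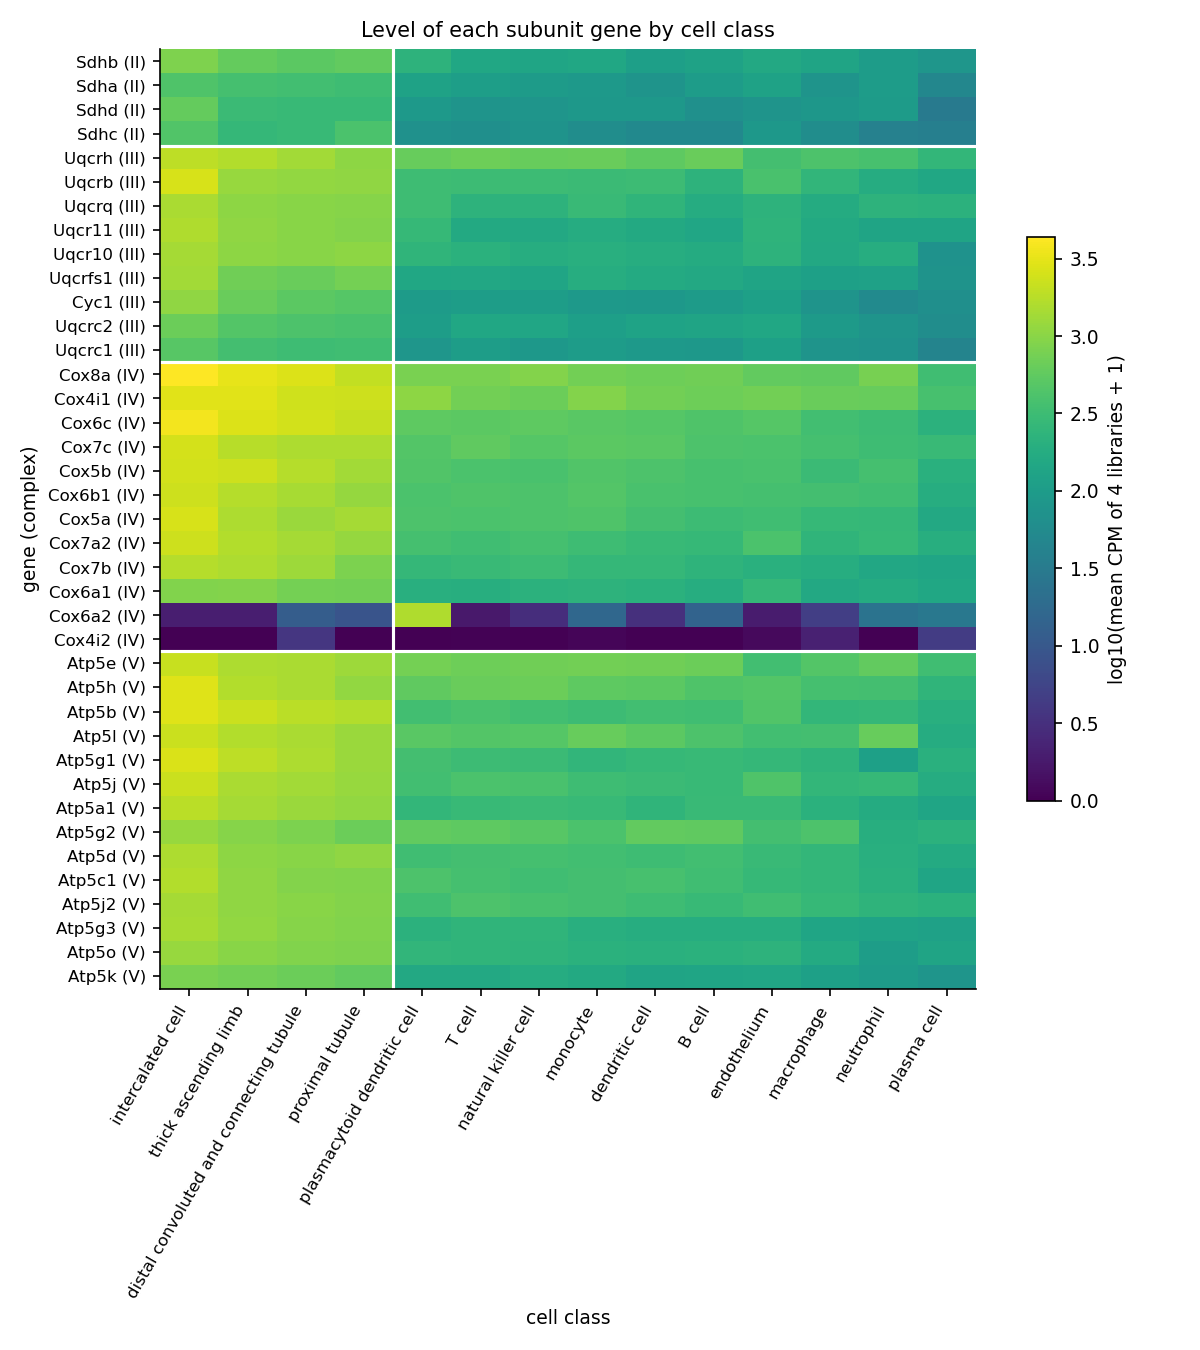
Level of each of the 39 genes (rows, with their complex) in the 14 cell classes (columns), as log10 of the mean CPM of 4 libraries plus 1. The 4 tubule classes left of the white line are brighter for nearly every gene, and Cox6a2 is bright in plasmacytoid dendritic cells, with 470 to 2418 CPM.

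All 38 genes that could be tested were higher in the proximal tubule than in T cells (edgeR, Benjamini-Hochberg adjusted p below 0.05 over 14365 genes), where 41.2% of all genes tested were higher. Cox4i2 was too low to be tested in this fit. The median log2 difference of the 38 was 2.25, against 0.19 for all genes tested. Scaling by library totals alone, in place of TMM factors, gave 1.81 against −0.22. Expression of the proximal tubule markers was 19237, 25203, 23587 and 23579 CPM in the proximal tubule and 567, 147, 211 and 641 CPM in T cells (mutants 1 and 2, wild types 1 and 2). That is 2.95%, 0.585%, 0.895% and 2.72% of the proximal tubule level, and the part of free RNA in the T cell values was not tested.

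Among complex II genes, Sdhc, which encodes a membrane anchor subunit, had the largest difference of the members other than Cox6a2. It had 402 and 471 CPM in the proximal tubule of mutants and 412 and 328 CPM in that of wild types, against 68.5, 61.8, 54.3 and 69.3 CPM in their T cells. The lowest proximal tubule value was more than 4 times the highest T cell value. The log2 difference was 3.12 (SE 0.19, edgeR adjusted p = 2.18e-14). Sdhb, the iron-sulfur subunit and the complex II gene with the highest mean CPM over the classes, differed by 2.42 (SE 0.21).

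Among complex III genes, Uqcrh, the hinge protein and the one with the highest mean CPM over the classes, had the smallest difference. It had 1232, 1088, 1067 and 803 CPM in the proximal tubule, against 857, 645, 679 and 518 CPM in T cells (mutants 1 and 2, wild types 1 and 2). The proximal tubule was higher in each library, but the ranges of the 2 classes overlapped. The log2 difference was 1.08 (SE 0.19, edgeR adjusted p = 1.4e-05). The other 8 complex III genes differed by 1.85 to 2.95, and the highest of these was Uqcr11, a small accessory subunit.

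Among complex IV genes, Cox8a, a small membrane subunit and the complex IV gene with the highest mean CPM over the classes, differed by 1.82 (SE 0.19). Cox4i1, the common isoform of the regulatory subunit IV, had 2674 and 2612 CPM in the proximal tubule of mutants and 2396 and 1543 CPM in that of wild types, against 960, 728, 708 and 526 CPM in their T cells. The ranges did not overlap, and the log2 difference was 2.10 (SE 0.16, edgeR adjusted p = 1.74e-12). Cox6a1, the common isoform of subunit VIa, differed by 2.39 (SE 0.18).

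Complex V held the gene with the smallest difference, Atp5g2, one of the genes of subunit c, which forms the membrane ring of the enzyme. It had 783, 694, 714 and 447 CPM in the proximal tubule, against 671, 567, 509 and 392 CPM in T cells, in the same order of libraries. Each proximal tubule value was above the T cell value of its library, and the ranges overlapped. The log2 difference was 0.73 (SE 0.17, edgeR adjusted p = 0.000429), and without wild-type library 1 it was 0.45 (adjusted p = 0.136). The next smallest in complex V were Atp5h, subunit d of the stalk, at 1.28 and Atp5e, the epsilon subunit and the complex V gene with the highest mean CPM over the classes, at 1.34 (SE 0.18). Atp5g1 and Atp5g3, the other subunit c genes, differed by 2.46 and 2.31.

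Differences among tubule segments were smaller and depended on scaling. In the thick ascending limb, 1 gene was higher than in the proximal tubule (14.7% of all genes) and 2 were lower (27.2% of all genes). The higher one was Cox7b, a small subunit of complex IV, with 1520, 1495, 1417 and 1700 CPM in the thick ascending limb, against 984, 830, 885 and 646 CPM in the proximal tubule. The ranges did not overlap, and the log2 difference was 0.50 (SE 0.19, edgeR adjusted p = 0.031). The lower ones were Sdhc, at −1.004 (SE 0.18, adjusted p = 4.98e-05), and Cox6a2, at −3.54 (SE 1.30, adjusted p = 0.0285), which rests on 3 UMIs in the thick ascending limb. Cox7b was not called without mutant library 2 (adjusted p = 0.100) or without wild-type library 2 (0.0553). Cox6a2 was not called with library totals (0.0658), without mutant library 1 (0.0548), without wild-type library 1 (0.0791) or without wild-type library 2 (0.106).

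In the distal convoluted and connecting tubule, none of the 38 genes was higher than in the proximal tubule (21.8% of all genes) and 12 were lower (26.2% of all genes). Their median was −0.35, against −0.10 for all genes. The largest were Sdhc at −1.04 (SE 0.18), Cox5a, a subunit on the matrix side of complex IV, at −0.63 (SE 0.18), Uqcrfs1, the Rieske iron-sulfur protein, at −0.61 (SE 0.22), and Uqcr10, a small subunit of complex III, at −0.58 (SE 0.18). The edgeR adjusted p-values of the 12 lay between 1.84e-05 and 0.0324. Without mutant library 2 or without wild-type library 1, 1 of the 12 was called, and without mutant library 1 it was 7. With library totals alone 9 members were higher (40% of all genes) and 1 was lower (13.8%), while all genes tested had a median of 0.39, and in CPM the distal class had the higher sum in 2 of 4 libraries. Of the 12, 6 (Cox6a1, Cox4i1, Sdhd, Uqcrc1, Sdha and Cox7c) then had a difference above 0, at most 0.099, and none of the 6 was called. The count in each direction therefore depends on the scaling and on single libraries. Sdhc was called lower under library totals too, at −0.53. Its 232, 272, 244 and 372 CPM in the distal class lay below the 402, 471 and 412 CPM of 3 proximal tubule libraries and overlapped with the 328 CPM of wild-type library 2.

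Among immune cells, only B cells and monocytes were tested against T cells. B cells differed from T cells in 2 of 38 genes, Cox6a2, at 3.62 (13.1% of all genes were higher), and Atp5j2, subunit f of complex V, at −0.47 (15.8% were lower). Cox6a2 was not called without mutant library 1 (adjusted p = 0.0736), and Atp5j2 was not called without mutant library 1 (0.0807), mutant library 2 (0.203) or wild-type library 1 (0.239). Monocytes were higher than T cells for 4 genes (23.2% of all genes) and lower for none (26.3% of all genes), although 8 of the 38 had an unadjusted p below 0.05. These 4 were Cox6a2 at 4.38, Atp5l, subunit g of complex V, at 0.59, Uqcrq, a small subunit of complex III, at 0.57, and Cox4i1 at 0.55. The last 3 were not called without wild-type library 1, and Atp5l and Uqcrq were not called without mutant library 2.

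The proximal tubule class was made of clusters with different levels of the members. The 39 genes took no part in the clustering, but genes that move with them did, so the clusters are described without a test. Cluster 4, led by Npl, Ass1 and Gatm, had a summed level of 63431.5 and 55622 CPM in mutants and 62219 and 57884 CPM in wild types. Cluster 2, led by Cyp4a10, Hpd and Apom, had 51309 and 43034 CPM in mutants and 44911 and 41241 CPM in wild types. Cluster 12, led by Spp2, Gc and Gpx3 and with Slc5a2, the sodium-glucose transporter of the early proximal tubule, among its leading genes, had 49840 and 42994 CPM in mutants and 43797 and 38549 CPM in wild types. Cluster 15, led by Kap, had 42995, 34984, 42540 and 37284 CPM. Cluster 5, led by Bnc2 and Slc5a12, a lactate transporter of the proximal tubule, had the lowest level of the 6 clusters drawn, with 27265 and 17823 CPM in mutants and 19642 and 13884 CPM in wild types.

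Cluster 5 had 38903, 39568, 46778 and 74013 CPM of Malat1, a long RNA kept in the nucleus, against at most 2829 CPM in any library of clusters 2, 4, 9, 12 and 15. The cells of cluster 5 made up 540 of 2663 and 84 of 1248 proximal tubule cells in mutants, against 322 of 1695 and 931 of 3788 in wild types. The small cluster 26, with 57 cells and only 1 cell in each of 2 libraries, was not drawn. It had a lower summed level than cluster 5, with 25583 and 4372 CPM in mutants and 6817 and 13820 CPM in wild types, and 28920 to 47307 CPM of Malat1. Cluster 9, led by Gm10639 and Pck1, held 1126 cells of wild-type library 2 and 26 to 39 cells of each other library, so that its 55922, 50585, 56477 and 52398 CPM describe mostly 1 library. The mitochondrially encoded share was low in cluster 4, at 2.14% and 3.75% in mutants and 1.74% and 6.33% in wild types, and high in cluster 12, at 15.7% and 25.2% in mutants and 26.5% and 27.1% in wild types. The nuclear subunit genes and the mitochondrial transcripts did not order the clusters alike. The 2 distal clusters also differed. Cluster 17, led by Calb1 and Pvalb, had 64357 and 61726 CPM in mutants and 71099 and 77383 CPM in wild types, with at most 3209 CPM of Malat1. Cluster 18, led by Slc12a3 and Hsd11b2, had 32142 and 27299 CPM in mutants and 30930 and 24785 CPM in wild types, with 24628 to 78537 CPM of Malat1. It was mixed. At least 3 distal markers were held by 83 of its 184 and 69 of its 131 cells in mutants. In wild types 60 of 113 and 42 of 59 cells held them. None of the distal markers was seen in 35 and 23 cells of mutants and 21 and 6 of wild types. Some cells held at least 3 principal cell, fibroblast or podocyte markers.

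**Figure D3:**
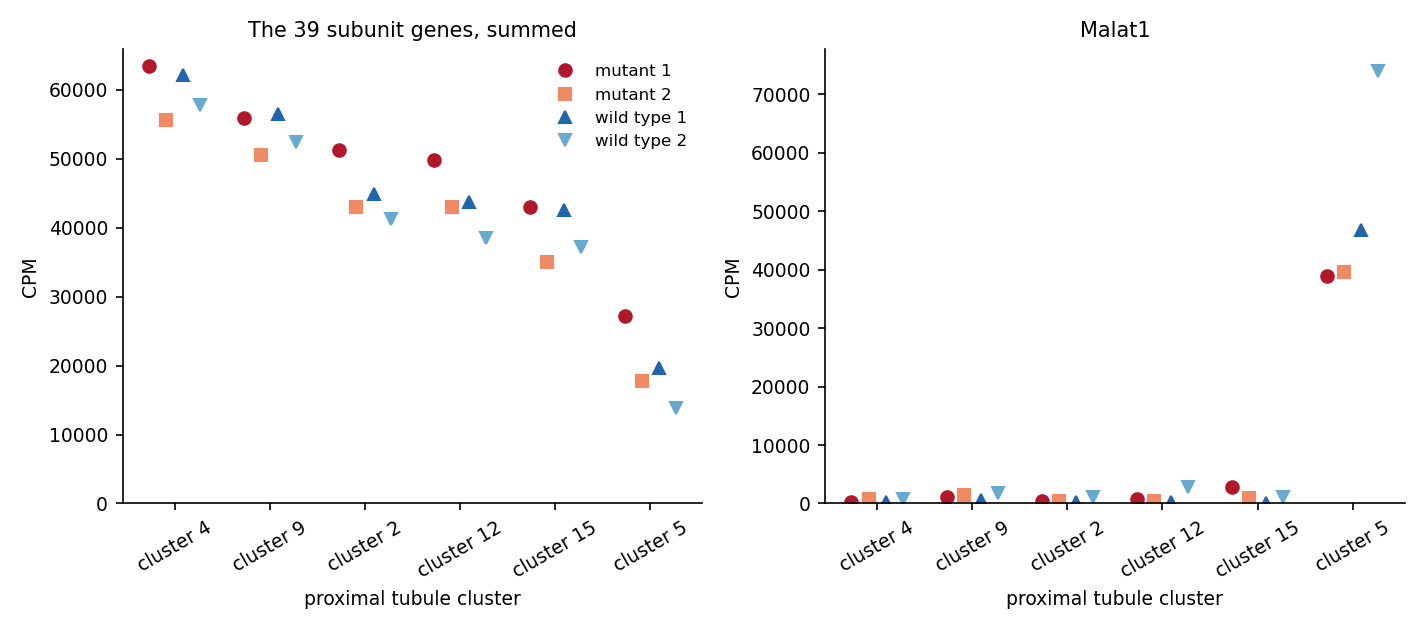
Summed level of the 39 genes (left) and level of Malat1 (right), both in CPM, in 6 proximal tubule clusters (x axis), with 1 point per library. Cluster 5 has the lowest summed level in every library, 13884 to 27265 CPM, and the highest Malat1, 38903 to 74013 CPM.

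Of the tissue isoforms, Cox4i2 (chr2:152754173-152765037, plus strand of mm10, GENCODE M21) was nearly absent. In the proximal tubule it had 1 and 0 UMIs in mutants and 0 and 1 UMIs in wild types, against 119384 UMIs of Cox4i1 (chr8:120668222-120674207, plus strand) in the 4 libraries together. Cox4i2 made up 0.00168% of the pair, with an exact 95% interval of 0.000203% to 0.00605% that covers counting error only. No UMI of it was seen in intercalated cells, thick ascending limb, dendritic cells, natural killer cells, neutrophils or plasmacytoid dendritic cells. In the thick ascending limb this allows a share of up to 0.0361% of the pair.

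The few Cox4i2 UMIs lay elsewhere. Macrophages held 9 and 8 UMIs in mutants and 8 and 1 in wild types, plasma cells 0 and 12 in mutants and 0 and 36 in wild types, and the distal class 17 and 4 in mutants and 3 and 0 in wild types. Plasma cells had the largest share, 1.16% of the pair (0.859% to 1.54%), and 29 of their 363 cells held a UMI, at a median of 23649 UMIs per cell. After thinning to 1000 UMIs per cell, 1 of 358 plasma cells held one. Barcodes with at least 3 of 8 mural cell markers (pericytes and vascular smooth muscle, in which Cox4i2 is known to be expressed) numbered 4 and 5 in mutants and 2 and 3 in wild types. Those 14 barcodes held 14 and 4 Cox4i2 UMIs in mutants and 1 and 0 in wild types. In the mural barcodes of mutant library 1, Cox4i2 reached 560 CPM beside 921 CPM of Cox4i1, on 4 barcodes. In the other libraries Cox4i2 was at 36.7 CPM in mutant library 2 and at 48.1 and 0 CPM in the wild types, beside 752, 1057 and 740 CPM of Cox4i1. 10 of the 14 had been placed in the distal class.

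Cox6a2 (chr7:128205435-128206387, minus strand) was the leading isoform in plasmacytoid dendritic cells. It had 2418 and 1644 CPM in mutants and 1880 and 470 CPM in wild types, where wild-type library 2 held 2 cells and 14 UMIs. Cox6a1 (chr5:115345642-115348981, minus strand) had 275 and 187 CPM in mutants and 190 and 134 CPM in wild types. Cox6a2 thus made up 89.8% and 89.8% of the pair in mutants and 90.8% and 77.8% in wild types. 119 of the 128 cells held a Cox6a2 UMI, or 93.0% (exact 95% interval 87.1% to 96.7%).

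In other classes Cox6a1 was the main isoform. Plasma cells had 52.7 and 8.96 CPM of Cox6a2 in mutants and 41.8 and 8.11 CPM in wild types. Monocytes had 25.6 and 13.2 CPM in mutants and 22.2 and 0 CPM in wild types. B cells had 29.7 and 0.335 CPM in mutants and 23.1 and 0.689 CPM in wild types, with up to 30 UMIs in 1 cell, and T cells 0.99 and 0.703 CPM in mutants and 0.948 and 0.477 CPM in wild types. In B cells it was high in mutant library 1 and wild-type library 1 and near 0 in the other 2. A barcode search found 231 barcodes with at least 3 of 7 markers of plasmacytoid dendritic cells, of which 126 were in that class, 64 in the dendritic cell class, 14 among T cells, 9 among B cells and 9 among monocytes. How far such barcodes account for the low levels in those classes was not tested.

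The proximal tubule held a low level of Cox6a2, with 134 and 46 UMIs in mutants and 109 and 67 in wild types, or 9.88 and 7.40 CPM in mutants and 11.04 and 2.39 CPM in wild types. Of 9394 proximal tubule cells, 257 held a UMI (2.74%, interval 2.42% to 3.09%, median depth 3781 UMIs), against 20 of 5601 T cells (0.357%, 0.218% to 0.551%, median depth 4821 UMIs). After thinning to 1000 UMIs the shares were 0.821% and 0.073%, with 1355 proximal tubule cells and 120 T cells too shallow to be thinned. The edgeR log2 difference of the proximal tubule from T cells was 3.88 (SE 0.80, adjusted p = 8.82e-05). Cluster 4 had 15.0 and 15.5 CPM in mutants and 21.3 and 21.5 CPM in wild types, while cluster 15 had 2.15 and 0 CPM in mutants and 0 and 0.537 CPM in wild types. Cluster 4 was higher than cluster 15 in every library.

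**Figure D4:**
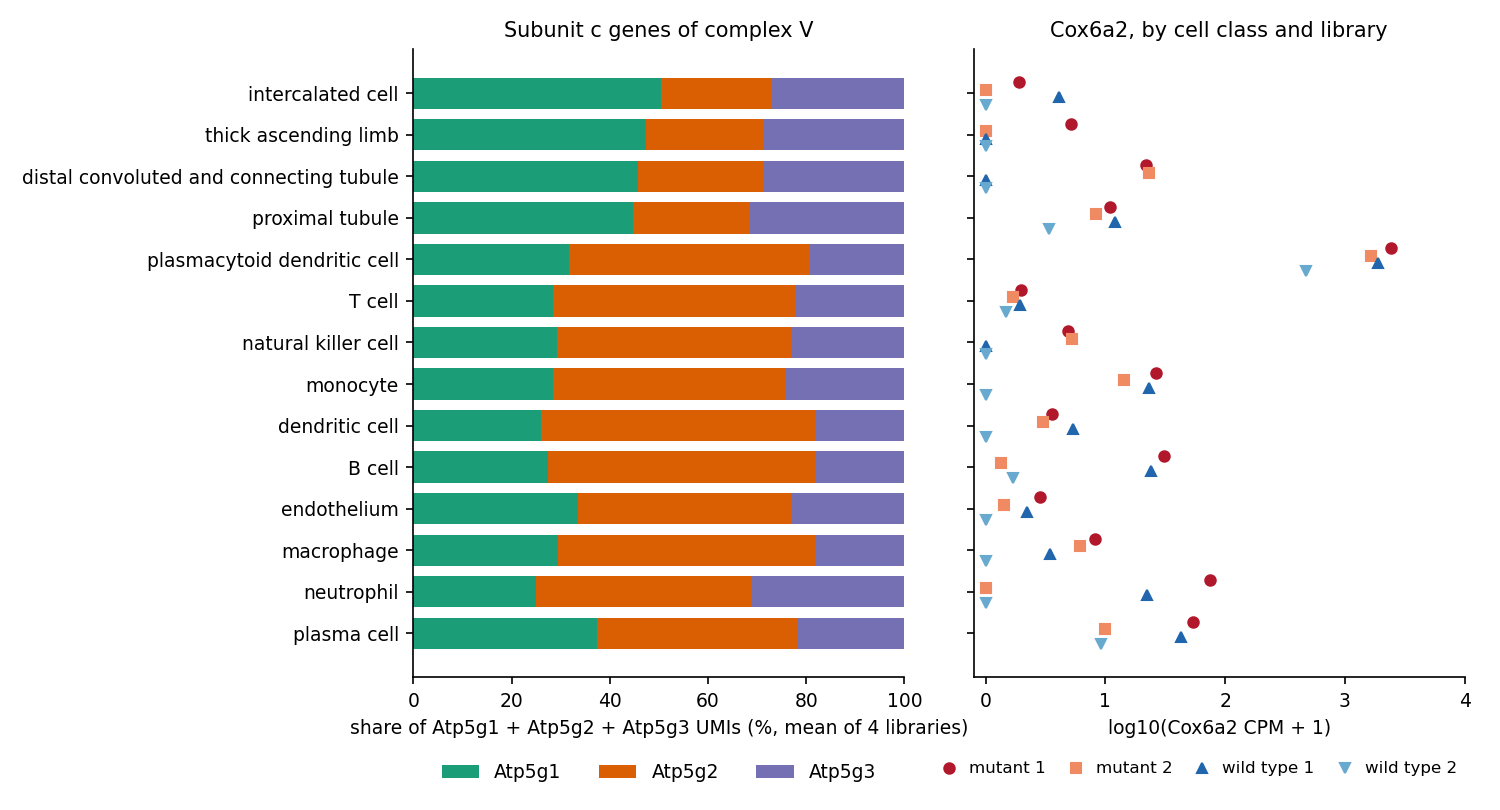
Left, share of UMIs of the 3 subunit c genes in each cell class (mean of 4 libraries, %). Right, Cox6a2 level by class and library, as log10 of CPM plus 1. Atp5g1 leads in the 4 tubule classes, with 44.6% to 50.5%, and Cox6a2 stands out in plasmacytoid dendritic cells, with 470 to 2418 CPM.

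The 3 genes of subunit c of complex V, whose products differ in the import signal and give the same mature peptide, were used in different proportions in tubule and immune cells. In the proximal tubule Atp5g1 (chr11:96068852-96075670, minus strand) made up 45.6% and 45.9% of their UMIs in mutants and 43.9% and 43.3% in wild types. Atp5g2 (chr15:102662864-102672352, minus strand) made up 24.0% and 23.1% in mutants and 24.2% and 23.2% in wild types. Atp5g3 (chr2:73908447-73911326, minus strand) made up the rest, 30.5%, 31.1%, 31.9% and 33.5%. In T cells Atp5g2 led instead, with 46.4% and 53.4% in mutants and 50.7% and 46.3% in wild types, while Atp5g1 had 31.4%, 25.7%, 27.8% and 28.8%.

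The shares of Atp5g2 in the proximal tubule and in T cells did not overlap. The same split held over the other classes. Atp5g1 averaged 50.5% in intercalated cells, 47.3% in the thick ascending limb and 45.8% in the distal class, against 26.0% to 29.5% in dendritic cells, B cells, monocytes, natural killer cells and macrophages. Plasma cells lay between, with 37.4% Atp5g1 and 40.6% Atp5g2, as did endothelium, with 33.5% and 43.4%. The mutant and wild-type means of the Atp5g2 share differed by under 1 percentage point in the proximal tubule, at 23.5% and 23.7%, while the 2 mutant shares of Atp5g1 lay above, and those of Atp5g3 below, the wild-type ones. In the distal class Atp5g2 made up 27.9% and 27.3% in mutants, against 25.8% and 21.1% in wild types, and the groups did not overlap. Genotype differences in these shares were not tested. UMIs number transcript ends and were not divided by length, so they can be set side by side within such a family. Many of the 39 genes have processed pseudogenes, and the counting of reads shared with such copies is not given here.

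Since the 3 genes differ in where they are used, their start regions are shown. The 250 bases before the start site that RefSeq gives (GRCm38.p6) are printed 5′ to 3′ on the minus strand, at chr11:96075632-96075881, chr15:102671048-102671297 and chr2:73911327-73911576. Capitals mark a match to the NRF1 motif (GCGCA, then any base, then GCGC), searched on both strands, where NRF1 is a transcription factor of nuclear genes for mitochondrial proteins.
Atp5g1: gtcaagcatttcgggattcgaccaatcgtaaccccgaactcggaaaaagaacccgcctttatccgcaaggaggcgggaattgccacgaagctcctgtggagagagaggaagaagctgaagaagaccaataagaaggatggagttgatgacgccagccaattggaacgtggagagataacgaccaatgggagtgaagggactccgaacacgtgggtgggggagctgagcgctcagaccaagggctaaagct
Atp5g2: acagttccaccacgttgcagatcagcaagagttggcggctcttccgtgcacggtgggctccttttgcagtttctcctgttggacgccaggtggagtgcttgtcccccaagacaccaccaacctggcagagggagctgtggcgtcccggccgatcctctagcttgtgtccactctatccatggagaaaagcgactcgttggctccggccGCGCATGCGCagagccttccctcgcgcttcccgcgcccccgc
Atp5g3: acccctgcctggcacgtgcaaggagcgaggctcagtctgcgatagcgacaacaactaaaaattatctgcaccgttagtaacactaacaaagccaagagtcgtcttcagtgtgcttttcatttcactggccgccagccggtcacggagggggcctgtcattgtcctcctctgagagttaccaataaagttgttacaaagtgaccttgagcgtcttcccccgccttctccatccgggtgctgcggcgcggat

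In these windows the motif was found in Atp5g2, beginning 42 bases before the start, and not in Atp5g1. Atp5g3 had a match only after its start, outside the bases shown. The RefSeq starts used are not all the gene ends given above. The whole Atp5g2 window lies inside its gene as positioned there, and the Atp5g1 window overlaps the 5′ end of its gene. Only the Atp5g3 window directly adjoins its gene. Bases before other annotated starts are not shown. Over the full window of 250 bases before to 50 after the start, which RefSeq gave for 29 of the 39 genes, 10 of 29 held the NRF1 motif, against 4.60% of 32851 promoters. The motif CCGGAAG of ETS factors, the family of the respiratory gene activator GABP, was in 12 of 29, against 8.86% of promoters. The motif AANATGGC of YY1 was in 4 of 29, against 6.05%. The member counts are of genes, and the 29 genes had 32 promoters, whereas the background shares are of single promoters. Both strands were searched for each, and each motif was counted whether or not it overlapped another. A match is a description of letters and does not show binding. The 39 genes lie on 15 chromosomes, with at most 5 on 1 chromosome.

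Between genotypes, none of the members passed the threshold in any of the 8 tested classes (edgeR, adjusted p below 0.05). Between 37 and 39 of the 39 were tested per class. Of all genes, 0.585% were called in the proximal tubule, 2.07% in the thick ascending limb, 0.0158% in macrophages and 0% in the other 5 classes. At an unadjusted p below 0.05, 10 of 37 members were counted in the thick ascending limb, which is 27.0% beside 21.9% of all genes. The counts were 3 of 39 in macrophages (5.34% of all genes), 2 of 38 in B cells (3.58%) and 1 of 38 in the distal class (13.1%). No member was counted in the proximal tubule (9.47% of all genes), dendritic cells (4.70%), T cells (3.82%) or monocytes (3.20%). DESeq2 called 1 member in the distal class, Cox6a2, where it called 0.838% of all genes. It called none in the proximal tubule (1.05% of all genes), thick ascending limb (0.623%), T cells (0.0756%), dendritic cells (0.0263%), B cells (0.0101%), macrophages (0.0079%) or monocytes (0%).

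The median log2 fold change of the members, mutant over wild type, was 0.49 in the proximal tubule, 0.35 in the thick ascending limb, 0.55 in T cells, 0.56 in B cells, 0.59 in monocytes, 0.61 in dendritic cells and 0.75 in macrophages. In the distal class it was −0.06, and without wild-type library 1 it was 0.072, with 22 of 39 members above 0. The median of all genes lay between −0.03 and 0.02. All 38 members were above 0 in the proximal tubule and in B cells and all 37 in T cells, against 14 of 38 in the distal class. Of all genes, 51.4%, 48.8%, 50.4% and 48.8% were above 0 in these classes, in the same order. These counts share libraries and are not independent of each other.

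On TMM-scaled values, both mutants lay above both wild types for 28 of 37 members in the thick ascending limb (26.2% of all genes), 22 of 38 in B cells (20% of all genes) and 21 of 38 in dendritic cells (23.3%). The counts were 20 of 39 in macrophages (23%), 14 of 38 in the proximal tubule (21.6%), 14 of 37 in T cells (19.8%), 14 of 38 in monocytes (20%) and 6 of 38 in the distal class (23.9%). Both mutants lay below both wild types for 8 of 38 in the distal class (25.1%) and 1 of 39 in macrophages (21.7%). With 2 libraries against 2, an exact permutation test of a single value cannot give a p below 0.333.

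**Figure D5:**
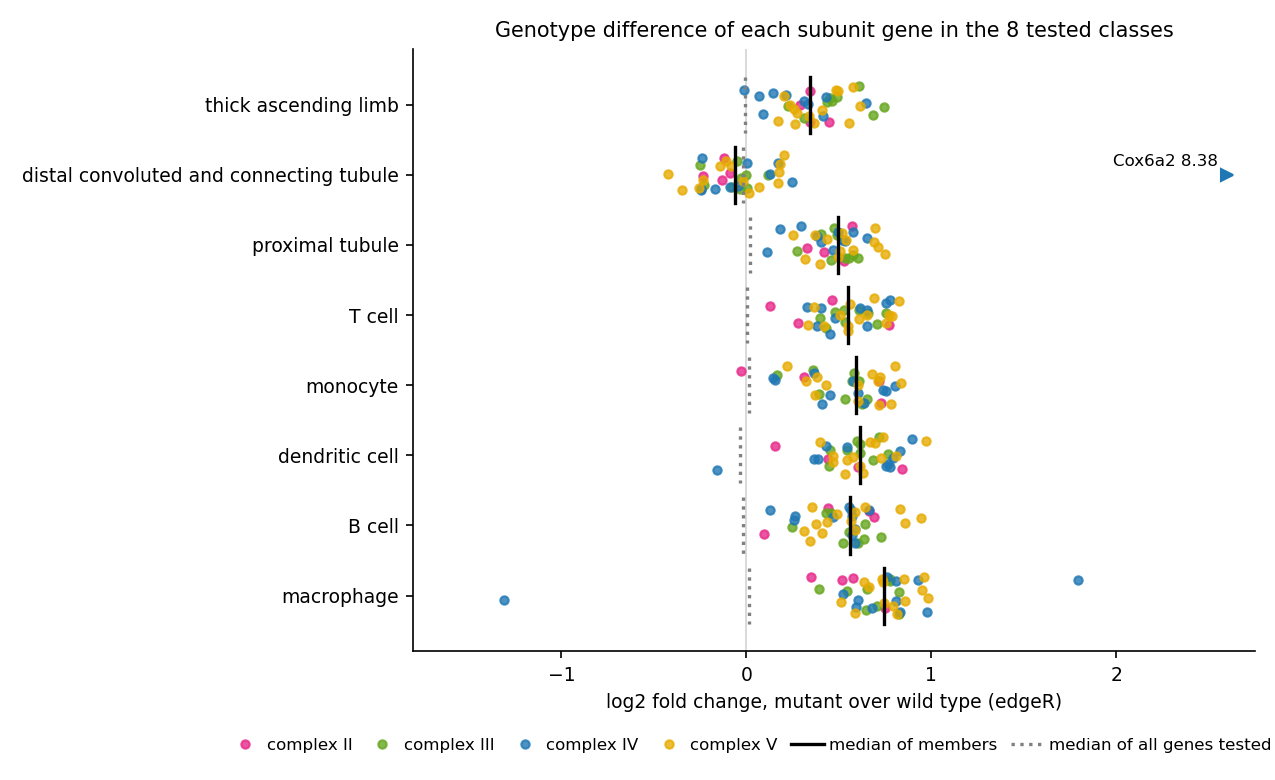
Log2 fold change of each member, mutant over wild type, in the 8 tested classes (rows), coloured by complex, with the median of the members (black line) and of all genes tested (dotted line). The medians lie between 0.35 and 0.75 in 7 classes and at −0.06 in the distal class, and Cox6a2 of the distal class (8.38) is drawn at the edge because it lies off the axis.

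In the proximal tubule the smallest p-values belonged to complex V. Atp5h had 1421 and 1268 CPM in mutants, against 1072 and 758 CPM in wild types. Both mutants were above both wild types, and the log2 fold change was 0.71 (SE 0.58, edgeR adjusted p = 0.693). Atp5b, the catalytic beta subunit, had 1713 and 2223 CPM in mutants, against 1629 and 988 CPM in wild types (0.75, SE 0.63, adjusted p = 0.698). Atp5o, which links the head of the enzyme to its stalk, had 1101 and 985 CPM in mutants, against 948 and 453 CPM in wild types (0.70, SE 0.60, adjusted p = 0.705). Wild-type library 2 was the lowest for each of the 3, and wild-type library 1 lay close to the mutants for Atp5b and Atp5o.

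The size of the proximal tubule difference depended on single wild-type libraries. Without wild-type library 2 the median of the members was 0.039. Without wild-type library 1, which left wild-type library 2 alone, the median was 1.17. In each of these fits the lone wild-type library is assumed to vary like the mutants. Wild-type library 2 had the highest Malat1 in the class, with 17576 and 6786 CPM in mutants, against 14929 and 43395 CPM in wild types. Within clusters the median was 0.14 in cluster 2, 0.51 in cluster 5 and −0.040 in cluster 15, the 3 with at least 50 cells in each library. No member was called in them. Of all genes, 25 of 8737 were called in cluster 2, 25 of 12304 in cluster 5 and 0 of 4143 in cluster 15. Without clusters 4 and 9, whose cells had a median mitochondrial share below 5%, the median of the members was 0.56. Immune marker genes in the class had 1901 and 1841 CPM in mutants, against 1134 and 670 CPM in wild types, without overlap. The part of cell state, nuclear RNA, immune RNA or library in the difference was not tested.

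In the thick ascending limb, complex III genes had the smallest p-values. Uqcrfs1 had 806 and 863 CPM in mutants, against 594 and 540 CPM in wild types (log2 fold change 0.69, SE 0.22, edgeR adjusted p = 0.115). Uqcrc1, a core protein of complex III, had 393 and 464 CPM in mutants, against 334 and 223 CPM in wild types (0.75, SE 0.26, adjusted p = 0.136). Atp5d, the delta subunit of complex V, had 1232 and 1195 CPM in mutants, against 898 and 832 CPM in wild types (0.62, SE 0.22, adjusted p = 0.142). For all 3, both mutants were above both wild types. Without wild-type library 1, 6 members were called higher in mutants, where 5.1% of all genes were, and the wild-type arm then holds 68 cells.

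In T cells Atp5h had 880 and 664 CPM in mutants, against 574 and 425 CPM in wild types (0.83, SE 0.39, adjusted p = 0.756). Sdhb had 198 and 153 CPM in mutants, against 138 and 97.1 CPM in wild types (0.77, SE 0.37), and Atp5o had 340 and 233 CPM in mutants, against 221 and 162 CPM in wild types (0.79, SE 0.39), with the same adjusted p. For each of them both mutants were above both wild types in CPM. Malat1 ran the other way, with 11142 and 9117 CPM in the mutants, against 14193 and 20471 CPM in the wild types, and the summed cytosolic ribosomal protein genes had 248203 and 213841 CPM in the mutants, against 215706 and 196192 CPM in the wild types.

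In B cells the smallest p-values were those of Atp5o at 0.94 (SE 0.38), Atp5d at 0.86 (SE 0.36) and Atp5h at 0.83 (SE 0.36), each with an edgeR adjusted p of 0.779. In dendritic cells they were those of Atp5o at 0.97 (SE 0.42), Cox5a at 0.83 (SE 0.39) and Cox8a at 0.89 (SE 0.44), with an adjusted p of 0.644. In monocytes they were those of Sdhc at 0.72 (SE 0.34), Atp5h at 0.84 (SE 0.40) and Atp5d at 0.81 (SE 0.40), with an adjusted p of 0.861. Atp5o in B cells had 307 and 215 CPM in mutants, against 187 and 138 CPM in wild types, so the groups did not overlap.

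In macrophages Atp5o had 245 and 166 CPM in mutants, against 141 and 124 CPM in wild types (0.98, SE 0.43, adjusted p = 0.749), and Cyc1, cytochrome c1 of complex III, had 101 and 79.4 CPM in mutants, against 68.4 and 56.7 CPM in wild types (0.83, SE 0.38, the same adjusted p). The groups did not overlap for either. Cox6a2 had 134 and 77 UMIs in the mutants, against 14 and 0 UMIs in the wild types, with 58 macrophages in wild-type library 2 (1.79, SE 0.61, adjusted p = 0.749).

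In the distal class the summed level was 39491 and 39603 CPM in mutants, against 45357 and 45497 CPM in wild types. Atp5k, subunit e of complex V, had 519 and 554 CPM in mutants, against 798 and 800 CPM in wild types (−0.42, SE 0.22, edgeR adjusted p = 0.455), and Atp5l had 1221 and 1257 CPM in mutants, against 1507 and 2019 CPM in wild types (−0.35, SE 0.26, adjusted p = 0.573). The groups did not overlap for either gene or for the sum in CPM, which is not scaled by TMM factors. Those factors were 0.944 and 0.950 in mutants, against 1.015 and 1.097 in wild types. With library totals the median of the members was −0.22, beside −0.17 for all genes. Cluster 18, with the lower sums, held 184 of 300 and 131 of 288 distal cells in mutants. In wild types it held 113 of 245 and 59 of 165. The part of this in the sum, or of its cells without distal markers, was not tested. Immune marker genes in the class had 1763 and 1622 CPM in mutants, against 971 and 777 CPM in wild types, and their part in the result was not tested. The 2 distal clusters lay on different sides, with medians of −0.06 in cluster 17 and 0.23 in cluster 18.

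Cox6a2 in the distal class had 48 and 51 UMIs in mutants, against 0 and 0 UMIs in wild types. Taking UMIs as independent, that is at least 20.1-fold higher in mutants, with 3 counts over both wild types together as the floor. Most of these UMIs lay in few cells, so this fold covers counting error only and is no bound over cells or libraries. The edgeR log2 fold change of 8.38 depends on the prior count and is no bound (adjusted p = 0.142), and DESeq2 gave 7.53 (adjusted p = 0.00123). Of the 99 UMIs, 97 lay in 17 cells of cluster 18, with up to 25 UMIs in 1 cell. Of those 17 cells, 10 held at least 3 of 6 podocyte markers, 3 held at least 3 fibroblast markers, 1 held at least 3 distal markers and 7 held none of the distal markers. Cluster 18 held 29 and 7 cells with at least 3 podocyte markers in mutants, against 2 and 1 in wild types.

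A search of all kept cells with the same podocyte markers, added after these values were seen, found 56 and 68 barcodes in mutants, against 15 and 1 in wild types. Podocytes are the filtering cells of the glomerulus and had no class of their own. These barcodes held 28 and 49 Cox6a2 UMIs in 7 and 4 barcodes of mutants, against 0 and 0 UMIs in wild types. Whether podocyte barcodes account for the distal difference was not tested. Most of the 140 barcodes were in the endothelium class (97) or the distal class (39).

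Whether the genotype difference itself varied between classes was tested as an interaction with T cells. No member was called (edgeR, 0.0139% of all genes in the proximal tubule, 0% in the thick ascending limb and 0% in the distal class). The median difference of the members from T cells was −0.01 in the proximal tubule, −0.11 in the thick ascending limb and −0.55 in the distal class. At an unadjusted p below 0.05 there were 0, 0 and 5 of 38 members, where 682, 596 and 760 of 14365 genes were. The distal count depended on scaling. With library totals it was 21 of 38, where 750 of 14365 genes were, and no member was called. Leaving out 1 library at a time, the distal median ran from −0.89 to −0.28. The distal values included −0.91 for Uqcrfs1 (SE 0.42, adjusted p = 0.918) and −0.84 for Sdhb (SE 0.39, adjusted p = 0.935).

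The mitochondrially encoded partners of these genes were measured in the same cells. The UMIs of mt-Co1, mt-Co2 and mt-Co3 relative to those of the nuclear complex IV genes were 2.36 and 4.75 in the proximal tubule of mutants, against 3.76 and 4.45 in that of wild types. In T cells the ratio was 2.40 and 4.06 in mutants, against 3.45 and 4.90 in wild types, and in macrophages 2.15 and 4.50, against 3.82 and 7.14. For complex V the ratio of mt-Atp6 and mt-Atp8 was 0.69 and 1.93 in the proximal tubule of mutants, against 1.10 and 2.44 in wild types. The groups overlapped in each of these, and mutant library 1 was the lowest. For complex III the ratio of mt-Cytb was 1.59 and 2.99 in the proximal tubule of mutants, against 3.26 and 3.09 in that of wild types, and 1.70 and 2.49 in T cells of mutants, against 3.02 and 2.53 in those of wild types. In macrophages it was 1.52 and 2.76 in mutants, against 3.30 and 4.36 in wild types. Both mutants lay below both wild types for complex III in these 3 classes and in dendritic cells, monocytes and intercalated cells, and the groups overlapped in the other 8 classes. These ratios were not tested, and the smallest p that an exact permutation test could give is 0.333. In intercalated cells the complex IV ratio was 0.84 and 0.97 in mutants, against 1.17 and 3.26 in wild types, without overlap, on 32 cells in the smallest library. The distal class ran the other way, also without overlap, on 165 cells in the smallest library. Its complex IV ratio was 3.15 and 4.88 in mutants, against 3.02 and 2.23 in wild types.

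Other genes of the pathway were counted from lists of assembly factors, further subunits and regulators. Against T cells, the proximal tubule was higher for 2 and lower for 1 of 4 complex II assembly factors, and higher for 5 of 6 of complex III, 15 of 21 of complex IV and 3 of 4 assembly and inhibitor proteins of complex V, with none lower in these 3 lists. It was higher for 6 of 7 further subunits of complexes IV and V and for Cycs, cytochrome c, at 2.64. Of 12 transcriptional regulators 6 were higher and 4 lower, and all 6 mitochondrial mRNAs of complexes III to V were higher, with a median of 2.21 beside the 2.25 of the nuclear subunits. The background is the 41.2% given above, and 32.7% of all genes were lower.

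Between genotypes, 2 genes of these lists were called, both regulators and both lower in mutants in the thick ascending limb, where 2.07% of all genes were called. Ppargc1a, a coactivator that drives genes of mitochondrial biogenesis, had 295 and 203 CPM in mutants, against 452 and 666 CPM in wild types (log2 fold change −1.04, SE 0.24, edgeR adjusted p = 0.0456). Esrrb, an orphan nuclear receptor of the estrogen-related family, had 68.1 and 40.8 CPM in mutants, against 213 and 144 CPM in wild types (−1.61, SE 0.30, adjusted p = 0.018). Neither gene's groups overlapped in CPM. On TMM-scaled values, both mutants lay below both wild types for 26.9% of all genes in this class. In the same class 36 of the 37 subunit genes tested had a log2 fold change above 0, without passing the threshold, beside 49.5% of all genes. A link between the regulators and the subunit genes was not tested. Ppargc1a was not called without mutant library 2 (adjusted p = 0.255), with doublet calls kept (0.0685) or with clusters made from all variable genes (0.0555).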

How the data were processed

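The deposited files hold UMI counts per gene and barcode, made by the authors with Cell Ranger 7.0.0 for the mutant and 7.1.0 for the wild-type libraries, per the file headers. The build was mm10, per the submitters' processing notes, while no source used here gives the annotation release or counting settings. Cells needed at least 200 genes and 500 UMIs and at most 50% mitochondrial UMIs, and Scrublet calls (613) were removed. Clustering used scanpy 1.11.5 and leidenalg 0.10.2, with 2000 variable genes that excluded the 39 members and mitochondrially encoded genes, 30 components, 15 neighbours, resolution 1 and seed 1. Clusters were named from marker lists.

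Counts were summed per library and class and tested with edgeR 4.0.16 (R 4.3.3, quasi-likelihood, TMM, filterByExpr, Benjamini-Hochberg over all genes tested) in classes with at least 50 cells in every library. Class contrasts came from 1 fit over the tested classes with library as a term. The genes named are the Cox4i, Cox6a and Atp5g families, the member with the highest mean level of each complex, the 2 largest and 2 smallest differences of proximal tubule against T cells, the 3 smallest p-values per genotype comparison and every called gene of the other lists. Any further gene was named after its values were seen. Members and lists were chosen with earlier results of these data known. Alternatives were DESeq2 1.42.0, other scalings and filters, at most 25% mitochondrial UMIs, at least 1500 UMIs, doublet calls kept, clustering with all variable genes, leaving out each library and a replicate block. The exact intervals are Clopper-Pearson and, like the floor of 3 counts, cover counting error only. Gene positions are those of GENCODE M21, and promoters are RefSeq's. The code was tested on simulated data.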

Additional observations from a re-analysis of the deposited data

How the results depend on the processing

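Of the members called between classes, 6 of the 12 lower in the distal class than in the proximal tubule had a difference above 0 with library totals, without being called. With library totals the median genotype difference of the members was 0.30 in B cells, 0.31 in dendritic cells and 0.39 in macrophages. The median of all genes was then −0.26, −0.32 and −0.27 in these classes. Added after the data were seen, the medians were 0.23 in distal cluster 18, 0.14 in proximal tubule cluster 2 and −0.040 in cluster 15. DESeq2 called 1 member in the distal class (0.838% of all genes). Library totals gave 17 higher (23% of all genes) in the thick ascending limb than in the proximal tubule, 9 higher (40%) and 1 lower (13.8%) in the distal class, 6 lower (18.5%) in B cells than in T cells and 2 lower (33.4%) in monocytes. Clustering with all variable genes gave 2 higher (16.5% of all genes) in the thick ascending limb, 3 lower (22.1%) in the distal class and 2 lower (16.6%) in B cells, and leaving out mitochondrial genes gave 2 lower (16%) in B cells. Scaled to nuclear UMIs alone, the sums in CPM were 60681 in the thick ascending limb and 48440 in the distal class, and with at least 1500 UMIs the Atp5g3 share of endothelium was 22.6%. The causes were not tested. The limit of 25% mitochondrial UMIs left too few thick ascending limb cells to fit.

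Leaving out 1 library at a time, the members called between genotypes numbered 0 to 29 in the proximal tubule, 0 to 6 in the thick ascending limb, 0 to 1 in B cells and 0 to 1 in monocytes. Each highest count was that without wild-type library 1, where 14.5%, 8.76%, 2.81% and 0.814% of all genes were called in these classes, in the same order. The medians ranged from 0.039 to 1.17 in the proximal tubule, 0.30 to 0.51 in the thick ascending limb and −0.081 to 0.072 in the distal class. They ranged from 0.19 to 0.80 in B cells, 0.18 to 0.96 in T cells, 0.34 to 1.13 in dendritic cells, 0.29 to 1.23 in macrophages and 0.11 to 0.87 in monocytes. The counts were 37 to 38 higher in the proximal tubule than in T cells, 0 to 2 higher and 1 to 2 lower in the thick ascending limb, 1 to 21 lower in the distal class, 0 to 1 higher and 0 to 4 lower in B cells, and 1 to 7 higher and 0 to 1 lower in monocytes.

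The replicate numbers are shared by the groups, but nothing ties same-numbered libraries to each other, and the correlation of the deviations of replicate 1 ran from −0.39 to 0.47 by class. With a replicate block 1 member was called in the thick ascending limb, Uqcrc1 (0.77, edgeR adjusted p = 0.0458), where 5.88% of all genes were called.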
